A study of Homo sapiens with 6 samples.

Results

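TREM1 and a group of innate pattern receptors were described in HCC827, a human lung adenocarcinoma line with mutant EGFR, grown flat or as tumoroids. The group held 10 of the 60504 genes in the deposited table: the receptor TREM1 and its signalling partner TYROBP (also called DAP12), the Toll-like receptors TLR1, TLR2, TLR3, TLR4 and TLR5, their adaptor MYD88, the co-receptor CD14 and the cytosolic receptor NOD2. They were found by gene symbol, each with 1 row of the table, all protein-coding. The list was selected on values of these same libraries, in which TREM1 was among the largest differences between the cultures. The members' differences between cultures are therefore given as a description, with no p-value.

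The 2D group was a monolayer in uncoated flasks, seeded at 1000000 cells and grown for 4 to 6 days. The 3D group was embedded in Matrigel (a gel of basement membrane proteins, here low in growth factors) at 50000 cells a droplet and kept for 12 to 16 days. Both groups had the same serum-containing medium, and each gave 3 poly(A) RNA libraries. Values are TPM (transcript abundances scaled to the same total in each library), which account for transcript length, so levels of different genes can be compared within a library, and which keep no record of sequencing depth. The depth is therefore unknown, and a gene without signal is said only to be listed at 0. The labels do not say whether replicates were separate cultures, so error terms measure the spread between these libraries, which may be technical. Time, seeding and gel contact differed together with geometry and cannot be told apart.

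Innate immune cells and many epithelia sense microbes and damaged cells through receptors for conserved molecular patterns. Toll-like receptors bind such ligands at the cell surface (TLR1, TLR2, TLR4, TLR5) or in endosomes (TLR3) and pass the signal to NF-kB and interferon regulatory factors through MYD88 or, for TLR3, TICAM1. TREM1, best known from neutrophils and monocytes, amplifies this response. It has a short cytoplasmic tail without a signalling motif of its own and signals through TYROBP, an adaptor that recruits the kinase SYK.

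Promoter windows of 3 members are shown because the values below turn on TREM1, on its partner TYROBP and on TLR2, a receptor under NF-kB control that stayed close to 0. The windows are RefSeq sequences of GRCh38.p14 from 250 bases before to 50 bases after the annotated start. They lie at chr6:41286633-41286932 (minus strand), chr19:35908246-35908545 (minus strand) and chr4:153684030-153684329 (plus strand). Capitals mark matches, on either strand, to the NF-kB-like pattern (GGG, any 5 bases, CC) or the AP-1-like pattern TGANTCA.
TREM1: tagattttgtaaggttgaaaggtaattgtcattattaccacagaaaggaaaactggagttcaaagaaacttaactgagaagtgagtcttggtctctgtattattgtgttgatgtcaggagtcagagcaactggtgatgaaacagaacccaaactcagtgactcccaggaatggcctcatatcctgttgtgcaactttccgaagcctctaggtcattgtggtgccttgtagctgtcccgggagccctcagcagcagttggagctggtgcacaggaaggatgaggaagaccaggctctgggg
TYROBP: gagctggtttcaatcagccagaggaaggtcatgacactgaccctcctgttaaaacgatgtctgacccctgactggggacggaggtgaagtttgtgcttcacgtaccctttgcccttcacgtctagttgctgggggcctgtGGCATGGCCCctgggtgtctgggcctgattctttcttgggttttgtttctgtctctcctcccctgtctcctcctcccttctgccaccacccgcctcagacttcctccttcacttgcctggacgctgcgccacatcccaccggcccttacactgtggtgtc
TLR2: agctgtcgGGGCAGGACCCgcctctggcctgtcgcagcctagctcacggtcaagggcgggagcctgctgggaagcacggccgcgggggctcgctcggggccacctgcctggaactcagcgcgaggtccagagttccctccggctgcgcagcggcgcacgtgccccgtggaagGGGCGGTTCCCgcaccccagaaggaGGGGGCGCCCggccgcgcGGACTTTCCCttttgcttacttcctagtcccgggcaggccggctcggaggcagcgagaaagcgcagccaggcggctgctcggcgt
The TREM1 window held no match to either pattern. The TYROBP window held 1 match to the NF-kB-like pattern, and the TLR2 window held 6, some of which overlap. Of the windows not shown, that of TLR5 held 6, that of MYD88 held 2, and 1 of the 2 NOD2 windows held 4. The windows of TLR3, TLR4 and CD14 held no NF-kB-like match. Of 35116 windows of this length in the RefSeq table, 58.7% held the NF-kB-like pattern and 7.71% the AP-1-like pattern, so a single match is common. Among the members with a window, CD14 alone held the AP-1-like pattern, once. A match is only a string of letters, and its absence says nothing about binding elsewhere.

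TREM1 had by far the largest difference among the members. It was listed at 163, 223 and 155 TPM in 3D replicates 1, 2 and 3 and at 4.57, 4.26 and 3.04 TPM in the 2D replicates. The lowest 3D library thus lay far above the highest 2D library. The means were 180 ± 37.3 TPM in 3D and 3.96 ± 0.809 TPM in 2D (SD, n = 3 each), a 45.5-fold ratio, with a log2 fold change of 5.19 (SE 0.19) on the log2(TPM + 1) scale. In bulk RNA, a change in the number of cells of a type and a change in RNA per cell cannot be told apart. Only 8 of the 15042 tested genes had a larger log2 fold change. TREM1 stood above 52.6% to 55.7% of the genes listed above 0 in a 2D library and above 96.8% to 98.2% of them in a 3D library.

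TREM1 is annotated on the minus strand of chromosome 6 (chr6:41267926-41286719, GENCODE 29 on GRCh38). An unprocessed pseudogene of 365 bases, RP1-229K20.5 in the table, lies inside it on the same strand and overlaps no annotated TREM1 exon. It was listed at 17.7, 26.5 and 6.79 TPM in 3D and at 0.20, 0.17 and 0 TPM in 2D. It was thus also higher in every 3D library, and highest in the library where TREM1 was highest. How reads were divided between TREM1 and this pseudogene is not given in the sources used here.

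TYROBP, the adaptor through which TREM1 signals in myeloid cells, was listed at 0 TPM in all 6 libraries. HCST (DAP10), the related adaptor of other receptors, was also close to 0, at 0.07, 0 and 0.48 TPM in 3D and 0.18, 0.24 and 0 TPM in 2D. The receptor was thus among the more abundant transcripts in 3D while its usual partner was listed at 0. SYK, the kinase that binds phosphorylated TYROBP, was present at 6.61, 6.65 and 6.75 TPM in 3D and 11.0, 9.03 and 7.62 TPM in 2D. Its 3D libraries all lay below its 2D libraries, and it did not pass the test (log2 difference in limma -0.40 with SE 0.16 and adjusted p = 0.142). It did so after quantile normalization.

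**Figure D1:**
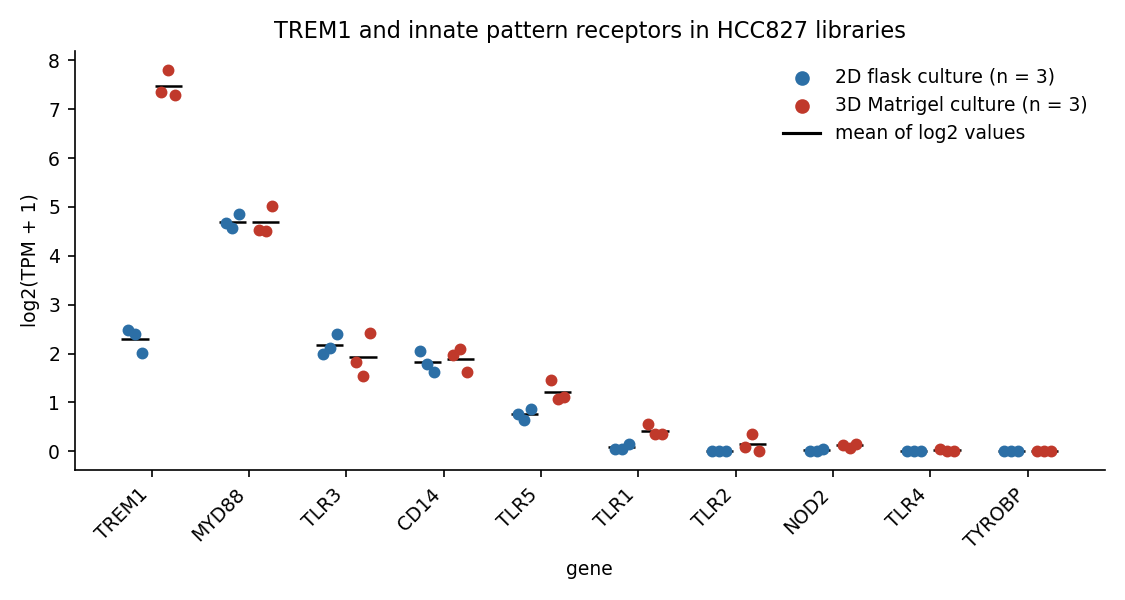
Each point is the log2(TPM + 1) of 1 gene (x axis, ordered by mean TPM) in 1 library of 2D (blue) or 3D (red) culture; black lines are means of 3 libraries. TREM1 separates the cultures, MYD88, TLR3 and CD14 overlap, and TYROBP is at 0 in all 6 libraries.

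MYD88, the adaptor shared by most Toll-like receptors, was the next most abundant member and had nearly the same mean in both cultures. It was listed at 22.2, 21.6 and 31.5 TPM in 3D and at 24.3, 22.9 and 28.0 TPM in 2D, and the groups overlapped. The log2 fold change was -0.01 (SE 0.18), with a 95% interval from -0.42 to 0.40. Its sign turned to positive when 3D replicate 1 or 2 or 2D replicate 3 was removed, within a range of -0.19 to 0.08 over all alternatives.

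TLR3, an endosomal receptor for double-stranded RNA, was the most abundant Toll-like receptor. It was listed at 2.57, 1.93 and 4.35 TPM in 3D and at 2.98, 3.34 and 4.30 TPM in 2D. The groups overlapped, and the log2 fold change of -0.24 (SE 0.26) had an interval from -0.84 to 0.37. The third library of each culture held the highest TLR3 and the highest MYD88 of its group. TREM1 was lowest in the third library of each culture, and so was CD14. Without both libraries numbered 3 the log2 fold changes of TREM1, MYD88, TLR3 and CD14 were 5.14, -0.10, -0.36 and 0.11.

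CD14, which hands lipopolysaccharide to the TLR4 complex, was listed at 2.90, 3.26 and 2.09 TPM in 3D and at 3.16, 2.44 and 2.07 TPM in 2D. The ranges lay almost on top of each other. The log2 fold change was 0.07 (SE 0.21), the interval ran from -0.43 to 0.57, and the sign was negative after median-ratio scaling (-0.05), after quantile normalization (-0.13), and without 3D replicate 2 or 2D replicate 3 (-0.02 and -0.03).

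TLR5, the receptor for bacterial flagellin, lay just above the minimum of a mean of 1 TPM that a gene needed to be tested, with a mean of 1.02 TPM. It was listed at 1.76, 1.10 and 1.15 TPM in 3D and at 0.70, 0.55 and 0.83 TPM in 2D, so every 3D library lay above every 2D library. TLR5 thus reached the minimum only through its 3D values. The log2 fold change was 0.46 (SE 0.23), with an interval from -0.09 to 1.00. On this scale the change of so low a gene is understated: with a pseudocount of 0.1 in place of 1 it was 0.84, and with 5 it was 0.15.

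The remaining 5 members stayed below that minimum. TLR1, which pairs with TLR2 to bind bacterial lipopeptides, was listed at 0.47, 0.27 and 0.27 TPM in 3D and at 0.03, 0.04 and 0.11 TPM in 2D. The TLR1 groups did not overlap, but the values are a small fraction of 1 TPM. TLR1 shares 1 annotated exon with its paralog TLR6 (0.20, 0.20 and 0.33 TPM in 3D, 0.25, 0.18 and 0.86 TPM in 2D), so the division of reads between them is uncertain. TLR2 was listed at 0.07, 0.28 and 0.01 TPM in 3D and at 0.01, 0.01 and 0 TPM in 2D, so its highest value came from 3D replicate 2. NOD2, which senses muramyl dipeptide from bacterial walls, was listed at 0.10, 0.05 and 0.11 TPM in 3D and at 0, 0 and 0.04 TPM in 2D. TLR4, the lipopolysaccharide receptor, was listed at 0.04 TPM in 3D replicate 1 and at 0 in the other 5 libraries.

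Ordered by level, TREM1 stood first in 3D, apart from MYD88 in second place, with no overlap between the ranges of the 3 libraries. In 2D the order began with MYD88, and TREM1, TLR3 and CD14 followed as neighbours whose ranges overlapped. TLR5 lay below them in both cultures, and TLR1 headed the members close to 0. TREM1 took 84.4%, 88.7% and 79.7% of the summed TPM of the 10 members in the 3D libraries and 12.8%, 12.7% and 7.92% in the 2D libraries. MYD88 took 68.0% to 72.9% in 2D. The ratio of TREM1 to MYD88 within a library, which does not depend on how libraries are scaled to each other, was 7.32, 10.3 and 4.91 in 3D and 0.188, 0.186 and 0.109 in 2D. The 8 members other than these summed to 6.89 to 7.98 TPM in 3D and 6.38 to 7.35 TPM in 2D.

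**Figure D2:**
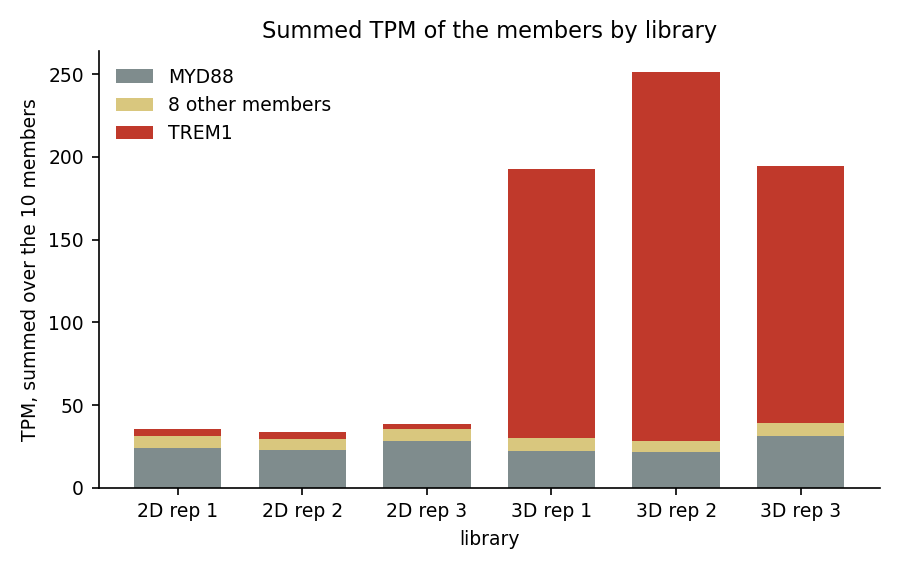
Bars give the TPM of MYD88, of the 8 members other than TREM1 and MYD88, and of TREM1, stacked, in each library (x axis). The MYD88 and remaining parts have similar heights in all libraries, and the TREM1 part fills 79.7% or more of each 3D bar.

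A gene was called when limma's adjusted p over all tested genes was under 0.05. Of the 5 tested members, 1 (TREM1) was called higher and none lower, and 4 (MYD88, TLR3, CD14 and TLR5) were not called. Of all 15042 tested genes 12.3% were called, 10.2% as higher and 2.12% as lower in 3D. This split of 1536 and 319 genes became 943 and 669 after median-ratio scaling and 891 and 573 after quantile normalization. Groups without overlap were seen for TREM1 and TLR5 among the tested members and for 36.7% of all tested genes. The median log2 fold change of the 5 tested members was 0.07, and that of all tested genes was 0.12. Since the list was drawn up with these values known, nothing is read from these counts. Missing the threshold also does not show that MYD88, TLR3, CD14 and TLR5 were equal in both cultures: their intervals give the sizes that fit the data.

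**Figure D3:**
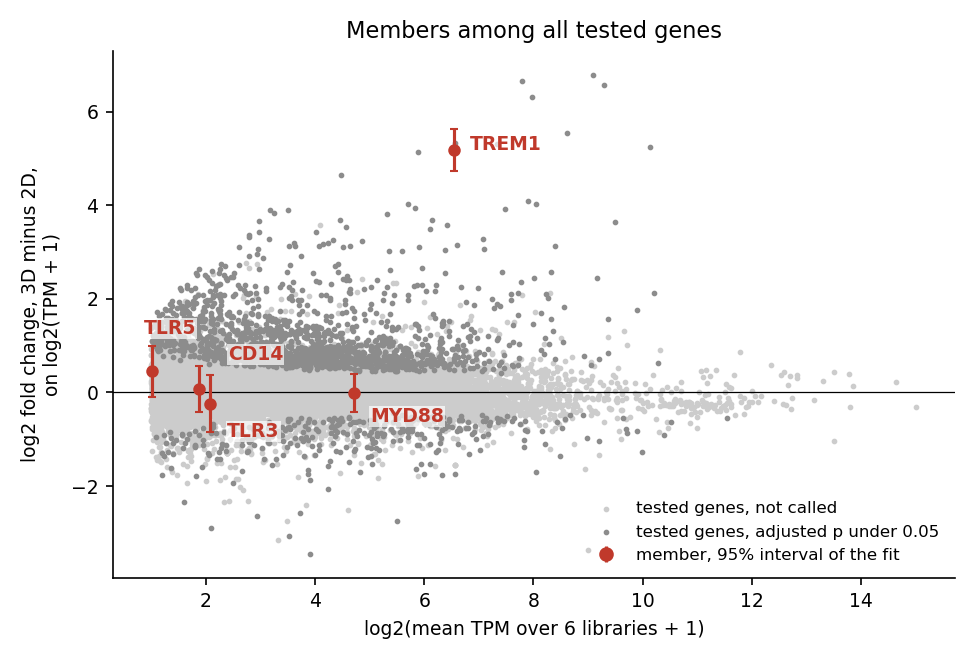
Each grey point is a tested gene, with log2(mean TPM + 1) on the x axis and the limma log2 fold change (3D minus 2D, on log2(TPM + 1)) on the y axis; darker points passed an adjusted p of 0.05. Red points are the 5 tested members with 95% intervals: TREM1 lies at 5.19 and the other members near the bulk of genes.

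The 5 protein-coding genes whose centred log2(TPM + 1) over the 6 libraries lay nearest to that of TREM1 were ATF3, IL6, FOSB, CXCL8 and TNFAIP3, in that order. Their root mean square differences from TREM1 were 0.37, 0.38, 0.44, 0.47 and 0.50 log2 units. ATF3 and FOSB are early-response transcription factors, IL6 and CXCL8 are an inflammatory cytokine and a neutrophil chemokine, and TNFAIP3 is an NF-kB inhibitor. IL6 was listed at 124, 121 and 96.4 TPM in 3D and at 1.83, 1.79 and 3.33 TPM in 2D. Within 3D, all 5 were highest in replicate 1, whereas TREM1 was highest in replicate 2. The likeness rests on 6 libraries that share the culture contrast, and it is a description.

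**Figure D4:**
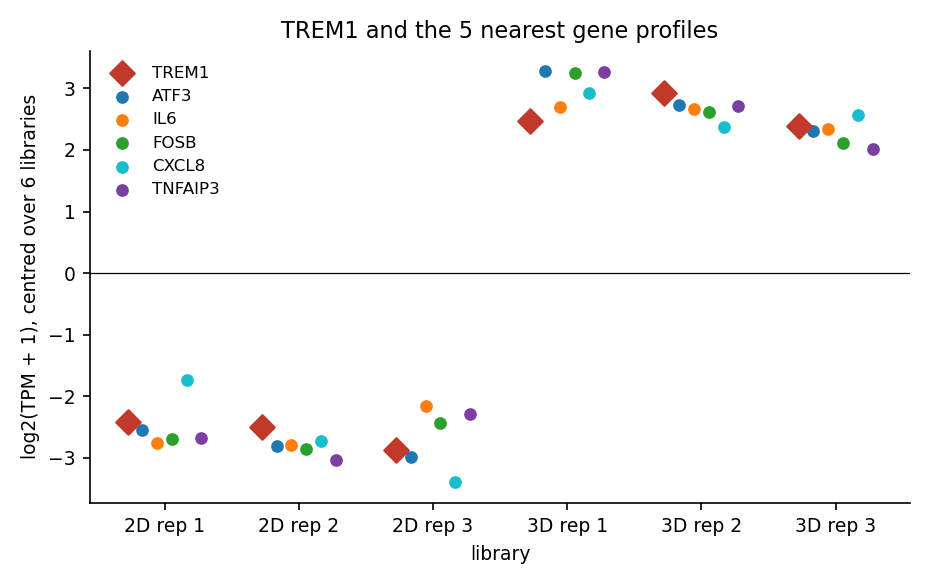
Points show log2(TPM + 1), centred over the 6 libraries (y axis), of TREM1 (red diamonds) and the 5 nearest protein-coding genes in each library (x axis). All 6 genes are below 0 in the 2D libraries and above 0 in the 3D libraries, and differ among themselves in which library of a culture is highest.

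Several members are known from myeloid cells, so the markers of other cell types were read in the same libraries. Of 20 myeloid markers, SPI1 (the myeloid lineage transcription factor), CD33, AIF1 and ELANE were listed at 0 in all 6 libraries, and 16 lay below a mean of 1 TPM. PTPRC (CD45), carried by all leukocytes, was listed at 0.25, 0.03 and 0.06 TPM in 3D and at 0 in 2D. The summed TPM of the myeloid list was 82.2 to 122 in 3D and 102 to 185 in 2D. Most of it came from CD68, a lysosomal protein that many cells make (45.1, 86.5 and 76.6 TPM in 3D; 95.4, 96.1 and 68.5 TPM in 2D), and from the integrin chain ITGB2 (24.9, 23.8 and 24.6 TPM in 3D; 86.2, 59.7 and 30.8 TPM in 2D). Of the 4 tested myeloid markers, the Fc receptor gene FCGR2A was called higher, with means of 4.62 TPM in 3D and 1.14 TPM in 2D, a call that ended with no filter and on removal of 3D replicate 1 or 2 or 2D replicate 1. Without CD68 and ITGB2 the direction was the opposite: the other 18 markers summed to 12.2, 12.0 and 7.51 TPM in 3D and to 3.41, 3.81 and 2.79 TPM in 2D. In all, 7 of the 20 lay higher in every 3D library than in any 2D library, namely FCGR2A, PTPRC, ITGAX (1.70, 3.05 and 0.71 TPM against 0.65, 0.16 and 0.34 TPM), CSF1R (means of 1.41 and 0.55 TPM), LAPTM5 (0.83 and 0.47 TPM), LYZ (0.27 and 0.08 TPM) and MPO (0.15 and 0.01 TPM). ITGB2 alone lay lower without overlap, and 12 overlapped. Groups without overlap, in either direction, were seen for 36.7% of all tested genes, so nothing is read from this count. The 7 low markers that lay higher thus moved in the same direction as TREM1. A positive log2 fold change was seen for 60.8% of all tested genes, but that share counts overlapping groups too and is a looser measure. Of the 7 markers, PTPRC, CSF1R, LAPTM5, LYZ and MPO lay below the minimum and are not among the tested genes. The part of these 7 markers in the results was not tested. ITGB2 was called lower after median-ratio scaling, with the replicate block and among protein-coding genes only. It was also called lower without 2D replicate 3 or without both libraries numbered 3. ITGAX was called higher without 3D replicate 3 or without both libraries numbered 3. The lymphocyte list summed to 1.62 to 2.16 TPM in 3D and 1.85 to 6.51 TPM in 2D, with CD2 at 0 throughout. The fibroblast list summed to 9.00 to 14.1 TPM in 3D and 4.16 to 6.15 TPM in 2D, with COL3A1 and THY1 at 0 throughout, and the endothelial list to 5.15 to 5.46 and 3.20 to 4.79 TPM. The fibroblast and endothelial sums were thus higher in every 3D library, and their part in the results was not tested. The collagen gene COL1A1 was called higher, with means of 7.56 TPM in 3D and 2.3 TPM in 2D. That call ended with no filter and on removal of 3D replicate 2 or of 2D replicate 1 or 2 (highest adjusted p in limma 0.0659). The lung epithelial list fitted the label, with all 10 markers above the minimum in their mean over the 6 libraries. Among them was EPCAM, at 573, 567 and 589 TPM in 3D and 573, 587 and 631 TPM in 2D. SFTPB, with a 2D mean of 0.64 TPM, reached the minimum only through its 3D values. Keratin genes had lower means in 3D than in 2D, with 698 and 1201 TPM for KRT7, 1506 and 2206 TPM for KRT8, 1073 and 1761 TPM for KRT18, and 1739 and 2364 TPM for KRT19. Only KRT7 was called lower, and that call ended with no filter and on removal of any library except 3D replicate 3 (highest adjusted p in limma 0.119). KRT18 had no overlap and was called lower with the replicate block. KRT8, KRT18 and KRT19 were called lower on removal of 3D replicate 3, with or without 2D replicate 3. In this list, KRT7, KRT18 and MUC1 lay lower in every 3D library than in any 2D library. SFTPB lay higher without overlap, at 7.28, 1.49 and 9.71 TPM in 3D and 0.58, 0.41 and 0.92 TPM in 2D. It was not called (limma, adjusted p = 0.0512). It was called with a pseudocount of 0.1, with the replicate block, among protein-coding genes only and without 3D replicate 2. NAPSA, NKX2-1 and CDH1 also had higher means in 3D, with overlap.

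Genes around the receptors were read from 9 lists. Of 135 genes in the table, 94 reached a mean of 1 TPM; 23 of these were called higher in 3D, 2 were called lower and 69 were not called. That is 26.6% called, against the 12.3% of all tested genes, and the median log2 fold change was 0.36, against 0.12. The lists were chosen with earlier results of these data known. Nothing is read from this difference, and no p is attached to it. The counts and medians of single lists below stand beside the same all-gene values. The count of higher genes was 11 without the filter on low TPM and 15 after median-ratio scaling, where the count over all genes fell from 1536 to 729 and 943. Leaving out a library gave 7 without 3D replicate 1, 6 without 3D replicate 2, 13 without 2D replicate 1 and 7 without 2D replicate 2. The counts over all genes in the same runs were 331, 380, 733 and 408. The list count was 20 without 3D replicate 3 and 25 without 2D replicate 3, with 1610 and 1520 over all genes.

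**Figure D5:**
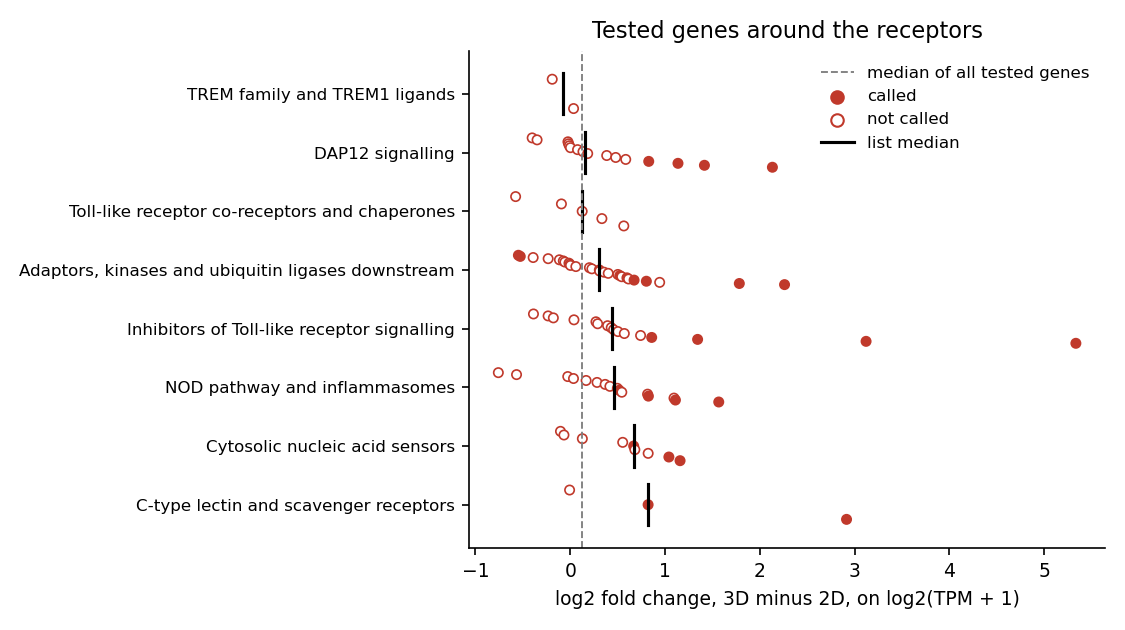
Each point is a tested gene of a list (y axis) at its limma log2 fold change (x axis, 3D minus 2D, on log2(TPM + 1)); filled points were called, black bars are list medians and the dashed line is the median of all tested genes. Called genes lie mostly to the right, the farthest being TNFAIP3 at 5.33; the Toll-like receptors outside the members do not appear because none reached 1 TPM.

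None of the Toll-like receptors TLR6, TLR7, TLR8, TLR9 and TLR10 reached a mean of 1 TPM, and TLR8 was listed at 0 throughout. Of 8 relatives and reported ligands of TREM1, 2 were tested and neither was called. HMGB1, a nuclear protein that acts as a danger signal once released, had 244 ± 54.4 TPM in 3D and 287 ± 109 TPM in 2D. CIRBP, a cold-inducible RNA-binding protein that can be released in the same way, had 83.7 ± 8.80 and 81.9 ± 11.1 TPM. PGLYRP1, a peptidoglycan-binding protein and TREM1 ligand, did not exceed 0.10 TPM in any library. Among co-receptors and chaperones, 5 of 10 were tested and none was called. LY96 (MD-2), the lipopolysaccharide-binding partner of TLR4, was abundant although TLR4 was not, at 127, 97.7 and 109 TPM in 3D and 183, 149 and 60.2 TPM in 2D. HSP90B1, the chaperone that folds Toll-like receptors, had 656 ± 84.7 TPM in 3D and 447 ± 90.7 TPM in 2D (limma, adjusted p = 0.0786), and was called once 2D replicate 3, or the third library of each culture, was removed.

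C-type lectin and scavenger receptors held a further receptor that differed. CLEC7A (dectin-1), a receptor for fungal beta-glucan, was listed at 21.7, 8.20 and 4.43 TPM in 3D and at 0.65, 0.35 and 0.19 TPM in 2D. With a 2D mean of 0.40 TPM, it reached the minimum for testing only through its 3D values. All 3D libraries lay above the 2D libraries, although the 3D values spread widely (log2 difference in limma 2.91 with SE 0.48 and adjusted p = 0.012). With a pseudocount of 0.1 that difference was 4.34 and with 5 it was 1.47. Removal of 3D replicate 2 or of 2D replicate 2 ended its call, with a highest adjusted p of 0.0586 in limma. SCARB2, a lysosomal membrane protein, rose from 45.4 ± 6.2 to 80.8 ± 9.42 TPM. Removal of 3D replicate 1 or 2 or of 2D replicate 2 ended that call. Of the 12 genes of this list 3 were tested, 2 were called higher and none lower.

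Of 21 genes that act downstream of TYROBP-type adaptors, 16 were tested, 4 rose and none fell. Their median log2 fold change of 0.16 was close to the 0.12 of all tested genes. All 4 also serve other receptors. FYN, a Src-family kinase, rose from 1.80 ± 0.412 TPM to 11.3 ± 1.87 TPM (log2 difference in limma 2.13 with SE 0.19 and adjusted p = 0.00131), under every alternative run. The log2 difference was 1.25 with a pseudocount of 5. PIK3R1, the regulatory subunit of phosphoinositide 3-kinase, rose from 13.7 ± 3.89 to 37.9 ± 9.10 TPM, and BCL10, the scaffold between CARD proteins and MALT1, rose from 39.8 ± 8.47 to 87.6 ± 7.30 TPM. The fourth, named after its values were seen, was the phospholipase PLCG1, with 22.7 ± 2.86 TPM in 3D and 12.5 ± 2.59 TPM in 2D. Removal of 3D replicate 1 or 2 ended the BCL10 and PIK3R1 calls, and removal of 2D replicate 2 or of the filter also ended that of PIK3R1. The PLCG1 call ended under either rescaling, with no filter, and when any library except 2D replicate 3 was removed.

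Among 28 adaptors, kinases and ubiquitin ligases below the Toll-like receptors, 27 were tested, 6 rose, 2 fell and 19 were not called (median log2 fold change 0.31). PELI1, a ubiquitin ligase that works with IRAK kinases, rose from 9.83 ± 0.983 to 53.0 ± 17.6 TPM (log2 difference in limma 2.26 with SE 0.26 and adjusted p = 0.00336). MAP3K8 (TPL2), the kinase that links these receptors to ERK, rose from 13.5 ± 4.15 to 48.8 ± 13.8 TPM (1.78, SE 0.26, adjusted p = 0.00809). Both calls held under every alternative run. TICAM1 (TRIF), the adaptor of TLR3, was listed at 14.1, 13.7 and 11.1 TPM in 3D and 7.29, 6.71 and 6.94 TPM in 2D, so it differed while TLR3 overlapped. Its call ended when 3D replicate 1 or 2 or 2D replicate 2 was removed. The genes that fell were IRAK1 and the interferon regulatory factor IRF3, which was named after its values were seen. IRAK1, a kinase downstream of MYD88, fell from 165 ± 10.2 to 113 ± 8.80 TPM, and IRF3 from 84.9 ± 4.84 to 58.6 ± 4.87 TPM. Both calls ended with no filter, with the replicate block, and when replicate 1 or 2 of either culture was removed. That of IRF3 also ended when the variance trend or 2D replicate 3 was dropped. The highest adjusted p in limma was 0.126 for IRAK1 and 0.116 for IRF3.

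Inhibitors of these pathways included the list gene with the largest log2 fold change, TNFAIP3. Of 18 inhibitors, 16 were tested, 4 rose and none fell (median log2 fold change 0.44). TNFAIP3 (A20), which removes activating ubiquitin chains, was listed at 262, 178 and 110 TPM in 3D and at 3.28, 2.34 and 4.57 TPM in 2D (log2 difference in limma 5.33 with SE 0.32 and adjusted p = 0.000241). With a pseudocount of 5 the difference was 4.41. DUSP1, a phosphatase of p38 and JNK kinases, rose from 69.5 ± 19.2 to 601 ± 104 TPM (3.12, SE 0.23, adjusted p = 0.000541). Both calls held under every alternative run. ZC3H12A (regnase-1), which cleaves cytokine transcripts, rose from 23.7 ± 7.96 to 59.5 ± 7.12 TPM. That call ended with no filter and when 3D replicate 1 or 2 was removed. SOCS1, a cytokine signalling inhibitor named after its values were seen, had 4.06 ± 0.343 TPM in 3D and 1.82 ± 0.596 TPM in 2D. Its call ended under either rescaling, with no filter, with the replicate block, and when any library except 2D replicate 3 was removed.

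Genes of the NOD pathway and inflammasomes held 23 members in the table, of which 16 were tested, 4 rose and none fell (median log2 fold change 0.46). AIM2, a sensor of cytosolic DNA, was listed at 2.26, 2.84 and 3.53 TPM in 3D and at 0.14, 0.19 and 0.61 TPM in 2D (log2 difference in limma 1.57 with SE 0.25 and adjusted p = 0.0113). With a 2D mean of 0.31 TPM, it reached the minimum for testing only through its 3D values. The log2 difference of this low gene was 3.00 with a pseudocount of 0.1 and 0.57 with 5. Removal of 2D replicate 2 ended its call (limma, adjusted p = 0.0516). PYCARD (ASC), the adaptor that AIM2 uses, was listed at 0.09 TPM in 2D replicate 3 and at 0 in the other 5 libraries. RIPK2, the kinase below NOD1 and NOD2, rose from 48.2 ± 8.32 to 107 ± 26.2 TPM although NOD2 was close to 0. NOD1 was listed at 4.68, 5.35 and 5.69 TPM in 3D and 3.66, 3.97 and 3.37 TPM in 2D, and was not called. The RIPK2 call ended with no filter and when replicate 1 or 2 of either culture was removed. NAIP, a sensor of bacterial flagellin, rose from 2.95 ± 0.420 to 6.02 ± 1.13 TPM, and BIRC2 (cIAP1), named after its values were seen, from 27.5 ± 1.45 to 39.7 ± 1.2 TPM. Both calls ended under either rescaling and when replicate 1 or 2 of either culture was removed. That of NAIP also ended with no filter and on removal of 2D replicate 3, and that of BIRC2 with the replicate block.

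Of 10 sensors of nucleic acids in the cytosol, 9 were tested, 3 rose and none fell (median log2 fold change 0.67). IFIH1 (MDA5), a sensor of long double-stranded RNA, rose from 13.0 ± 3.81 to 29.8 ± 5.75 TPM (log2 difference in limma 1.16 with SE 0.22 and adjusted p = 0.0186). IFI16, a DNA-binding sensor, rose from 50.9 ± 13.7 to 104 ± 12.3 TPM. TMEM173 (STING), the adaptor of cytosolic DNA sensing, rose from 41.9 ± 6.98 to 66.8 ± 7.71 TPM. All of these calls ended with no filter and when 3D replicate 1 or 2 or 2D replicate 2 was removed. Removal of 2D replicate 1 also ended those of IFI16 and TMEM173. The TMEM173 call further ended under either rescaling, with no variance trend and on removal of 3D replicate 3, with a highest adjusted p of 0.134 in limma.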

How the data were processed

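RNA-seq of HCC827 cells, 3 libraries each of 2D and 3D culture, was read from 1 table of TPM per gene and library that the authors deposited, rounded to 2 decimals; each column sums to about 1000000. Per the labels' protocols, RNA with an integrity number above 9 was selected for poly(A), made into directional libraries and sequenced as 75-nt single-end reads. The submitters' processing notes name RSEM 1.3.1, STAR 2.7.0d and cutadapt 2.3, with build hg38. For annotation release, strand setting and filters, no statement is given in the sources read here. No column was left unused.

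The test took genes whose mean reached 1 TPM and was run with limma 3.58.1 in R 4.3.3 (trend, two-sided, Benjamini-Hochberg adjusted p under 0.05) on log2(TPM + 1), 3D against 2D, after the fit was tested on simulated data. An exact test of 3 against 3 libraries cannot give a p under 0.1. Members, lists and rules were chosen with earlier results of these data known. Of each list, up to 3 called genes in the main direction and 1 in the other were named by largest change, or the 2 most abundant where none was called; likeness to TREM1 named 5 genes. SYK, HCST, PGLYRP1, PYCARD, NOD1, the Toll-like receptors outside the members and the marker levels fall outside this naming rule. They were named with their values in view. The tests, the naming rule and the alternative settings were not altered after the table was read. Of the 17 alternatives, some took a pseudocount of 0.1 or 5, no filter, a minimum mean of 5 TPM, median-ratio scaling or quantile normalization. Others dropped the variance trend, used a robust fit with trend, added a replicate block or took protein-coding genes only. The rest left out each library in turn, or both libraries numbered 3. Their main effects are given in the closing section. Figures used matplotlib 3.10.9.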

Additional observations from a re-analysis of the deposited data

How the results depend on the processing

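Over the 17 alternatives the log2 fold change of TREM1 ran from 4.36 (pseudocount of 5) to 5.48 (pseudocount of 0.1). The list was selected on this difference, so the range describes the value and is no sign of its stability. Of 18 called list genes named by rule, 5 (FYN, PELI1, MAP3K8, TNFAIP3 and DUSP1) kept the call in every alternative.

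Counts over all genes, 1536 higher and 319 lower, moved to 729 and 86 with no filter and to 891 and 573 after quantile normalization. Median-ratio scaling gave 943 and 669 and moved the median gene from 0.12 to -0.03. Without both libraries numbered 3 the counts were 2289 higher and 1239 lower. Leaving out single libraries gave 331 to 1610 higher and 25 to 553 lower. The list genes, 23 higher and 2 lower, moved to 11 and 0 with no filter, to 15 higher after median-ratio scaling, and to 4 lower after quantile normalization, 1 with no trend and 6 without both libraries numbered 3. Without both libraries numbered 3, 28 list genes were higher. Single libraries left out gave 6 to 25 higher and 0 to 3 lower. The cause was not tested.

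With the replicate block, 1479 genes were higher and 395 lower, and 0 list genes were lower. Deviations of same-numbered libraries correlated at 0.10, 0.04 and 0.19, not all above 0.1, so the numbers were not taken as pairs; not every library correlated best with its own number. Unknown depth limits the members near 0: their differences were not tested.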
